A study of Homo sapiens with 6 samples.

Results

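Vimentin (VIM) and the keratins KRT18 and KRT7 were followed in LX-2, a human hepatic stellate cell line, as 3 genes of the 62754 gene rows in the deposited count tables. The 3 genes were chosen by measured values, their levels in these same libraries, which separated the treatment groups. The differences between groups below therefore describe them and were given no test. Wild-type LX-2 cells had been kept for 24 h with DMSO, the vehicle control, with FEBJ, a fruit extract of the plant Brucea javanica and so a mixture, or with cynaroside, which is luteolin, a flavone, joined to glucose. The study holds 6 RNA-seq libraries of total RNA, with 2 in each group. No dose is given, nor is it stated that the paired libraries are separate cultures, so the spread between them may be technical.

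Intermediate filaments are the rope-like polymers of the cytoskeleton. Vimentin forms homopolymers in mesenchymal cells, including stellate cells. Keratins form obligate pairs of a type I chain, such as KRT18, with a type II chain, such as KRT8 or KRT7, and are best known as filaments of epithelial cells; in the liver KRT8 and KRT18 are those of hepatocytes, and KRT7 with KRT19 marks bile ducts. All share a central coiled-coil rod between a head and a tail.

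Reads were counted by gene and strand in a way the sources used here do not state. Each gene's own row held few counts, and the rows annotated on the opposite strand held many. The genes were therefore read from rows whose exons overlap theirs by 50 bp or more on the other strand, called here the opposite-strand reading. VIM was the sum of the VIM-AS1 and AL133415.1 rows, KRT7 was the KRT7-AS row, and KRT18 was the row named KRT8, whose gene lies opposite to KRT18. A pseudogene, KRT87P, overlaps KRT7 by 32 bp, just under the minimum, and had 0 counts in all 6 libraries. Over the series this reading gave 2976 genes, of which 2611 were tested. Without a stated strand setting the assignment is an assumption, and counts in an overlapping or antisense row cannot be assigned with certainty to either strand's gene.

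The stretches of the genes behind these counts are described because every level below rests on them, and those of VIM are shown because its level is the sum of 2 of them. In GENCODE 29, VIM lies on chromosome 10 and KRT7 and KRT18 on chromosome 12, all on the plus strand. VIM-AS1 overlaps VIM by 641 bp, which in transcript VIM-209 is exon 2, with 563 bases of coding sequence that begin at the start codon. AL133415.1 overlaps VIM farther downstream, over coding bases of exons 4, 5 and 6. KRT7-AS covers 221 coding bases of exon 7 of transcript KRT7-201. The KRT8 row covers 375 coding bases of exon 1 of transcript KRT18-201. The VIM sequences are sense strand, 5′ to 3′, from the GENCODE 29 transcripts, and capitals mark the VIM start codon. Positions count from the first base of VIM-209: exon 2 is shown from 414 to 503 and exon 4 from 1038 to 1127.
VIM exon 2, opposite VIM-AS1: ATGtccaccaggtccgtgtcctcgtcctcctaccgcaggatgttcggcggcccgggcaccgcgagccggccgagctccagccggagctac
VIM exon 4, opposite AL133415.1: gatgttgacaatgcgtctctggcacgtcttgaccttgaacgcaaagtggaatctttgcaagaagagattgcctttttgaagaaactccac

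The libraries ranged from 1599000 to 4709317 counts in gene rows. Of all counts in a table, 5.48 to 6.12% fell in gene rows and 87.4 to 88.3% outside every feature. The opposite-strand reading held 67.0 to 69.7% of the gene-row counts. A level in CPM is the count divided by the library's TMM-scaled size in that reading, times 1000000. Of 15 listed stellate markers, the own rows of COL1A2, DCN, DES, LRAT, LUM and PDGFRA were at 0 in all libraries, which says little where own rows hold few reads of a gene. On the TMM scale of the rows as deposited, the summed CPM of the 15 own rows was 412 to 450 with DMSO, 165 to 176 with FEBJ and 102 to 122 with cynaroside. Most of the FEBJ sum was the GFAP row, which lies opposite to CCDC103 and FAM187A and may hold their counts. That row was at 62.2 and 54.9 CPM with DMSO, 139 and 136 with FEBJ and 24.7 and 57.2 with cynaroside. In the opposite-strand reading 5 of the 15 (ACTA2, DES, HAND2, TAGLN and THY1) had a row, and these summed to 5252 to 5394 CPM with DMSO, 4794 to 4840 with FEBJ and 5308 to 5416 with cynaroside. Most of that sum was TAGLN, read from the row of the coding gene PCSK7, and DES had 6 counts or fewer in each library. The others did not all follow the sum. ACTA2, read in part from the row of the coding gene FAS, was at 250 and 222 CPM with DMSO. It was at 226 and 230 CPM with FEBJ and 512 and 553 with cynaroside. THY1 was at 530 and 530, 304 and 286, and 607 and 621 CPM in the same order of groups. HAND2 was at 35.3 and 37.0, 24.2 and 21.5, and 39.2 and 41.4 CPM. For bile duct epithelium, which KRT7 also marks, the own rows of KRT19, EPCAM and AQP1 were at 0 in all libraries. The rows of all 10 listed markers summed to 45.2 CPM in both DMSO libraries, to 45.4 and 54.2 with FEBJ and to 19.9 and 26.7 with cynaroside. SLC4A2, the 1 gene of that list with an opposite row, was at 1391 and 1495 CPM with DMSO, 1548 and 1508 with FEBJ and 1709 and 1820 with cynaroside. For mesothelium, CALB2, PDPN and UPK3B, 3 of 7 listed markers, were at 0 by their own rows, and the 7 rows summed to 4.38 to 7.42, 3.97 to 8.75 and 13.0 to 18.7 CPM in the same order of groups. For hepatocytes, which KRT8 and KRT18 also mark, the 8 own rows summed to 0.486 to 0.707 CPM with DMSO. They summed to 12.2 to 13.5 CPM with FEBJ and 0 to 2.02 with cynaroside. The 6 macrophage rows summed to 1.94 to 3.89, 9.95 to 12.2 and 4.28 to 6.86 CPM in the same order. The 7 endothelial rows summed to 125 to 128, 160 to 170 and 169 to 177 CPM. The part of other cell types in the keratin levels was not tested beyond these values. In bulk RNA, fewer cells of a type and less RNA per cell cannot be told apart.

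VIM held more counts than any other gene of the opposite-strand reading in the DMSO and cynaroside groups, and fewer than GAPDH alone with FEBJ. Its level was 77197 and 76113 CPM in the 2 DMSO libraries, 36769 and 36786 CPM in the FEBJ libraries and 62393 and 61839 CPM in the cynaroside libraries. Both treatments lay below DMSO, and FEBJ lay below cynaroside. The means were 76655 ± 767 (SD, n = 2), 36777 ± 11.4 and 62116 ± 391 CPM. The log2 fold change was -1.06 ± 0.01 (standard error) for FEBJ over DMSO, a 2.08-fold lower level, and -0.30 ± 0.01 for cynaroside over DMSO, 1.23-fold lower, although the cynaroside value was 0.11 with scaling factors from the rows as deposited. The gaps between all 3 groups were larger than the spread within them, a separation by which the gene was chosen. How many of all genes were so separated was not counted.

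KRT18, the type I keratin of simple epithelia, was lowest with cynaroside. It was 2623 and 2592 CPM with DMSO, 1915 and 1935 CPM with FEBJ and 780 and 724 CPM with cynaroside. The cynaroside libraries lay far below the other 4, and the FEBJ pair lay between the others. The means were 2608 ± 22.6, 1925 ± 14.5 and 752 ± 39.6 CPM (SD, n = 2). The log2 fold change over DMSO was -1.80 ± 0.05 for cynaroside, 3.49-fold lower, and -0.44 ± 0.05 for FEBJ, 1.35-fold lower. FEBJ over cynaroside was 1.37 ± 0.05, a 2.58-fold higher level.

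KRT7, a type II keratin of ducts and glands, was higher than DMSO with FEBJ and lower with cynaroside. Its level was 102 and 93.2 CPM with DMSO, 566 and 478 CPM with FEBJ and 57.9 and 34.7 CPM with cynaroside. Both FEBJ libraries stood far above all others and both cynaroside libraries below DMSO. The means were 97.4 ± 5.92, 522 ± 62.8 and 46.3 ± 16.4 CPM (SD, n = 2). FEBJ over DMSO was 2.42 ± 0.14 on the log2 scale, 5.37-fold higher, and cynaroside over DMSO was -1.20 ± 0.18, 2.30-fold lower. Between the treatments the difference was 3.63 ± 0.16, a 12.4-fold higher level with FEBJ. The KRT7 value with cynaroside rested on 62 and 110 counts, and 1 library set its size: the log2 fold change was -0.75 without cynaroside library 2 and -1.47 without cynaroside library 1.

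**Figure D1:**
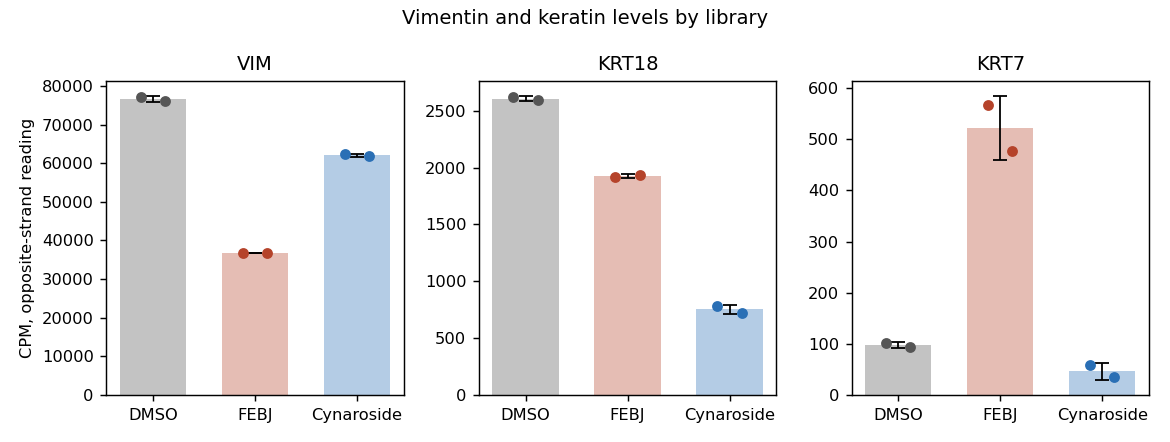
CPM of VIM, KRT18 and KRT7 in the opposite-strand reading, each panel with its own vertical axis from 0. Points are libraries, bars the mean of the 2 libraries and error bars the SD. VIM is lowest with FEBJ at 36777 CPM, KRT18 lowest with cynaroside at 752 CPM and KRT7 highest with FEBJ at 522 CPM.

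The 3 genes therefore stood in 3 different orders over the groups: DMSO, cynaroside, FEBJ for VIM, DMSO, FEBJ, cynaroside for KRT18, and FEBJ, DMSO, cynaroside for KRT7, from high to low. For each gene every neighbouring pair of groups was farther apart than the spread of its libraries. The genes were chosen by such separation, and its share over all genes was not counted. Per kilobase of overlapped exon the order of the genes was the same in each group. The overlap was taken with the exons of all transcripts of a gene. It was 641 bp for VIM-AS1, 619 bp for AL133415.1, 525 bp for the KRT8 row and 282 bp for KRT7-AS. Except for VIM-AS1, these lengths exceed the single-transcript stretches described above. The order of VIM-AS1 and AL133415.1 depends on this choice. In DMSO the VIM-AS1 row had 71201 and the AL133415.1 row 50105 CPM per kb, KRT18 had 4967 and KRT7 346. With FEBJ KRT7 had 1851 CPM per kb beside 3666 for KRT18, and with cynaroside 164 beside 1432. By the ratio of these values, KRT7 and KRT18 were closest to each other with FEBJ.

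Differences past the test were common among the other genes of these libraries. With edgeR's quasi-likelihood test and Benjamini-Hochberg adjustment, 69.3% of the 2611 genes differed between FEBJ and DMSO at an adjusted p of 0.05 or under, 34.1% higher and 35.2% lower with FEBJ. For cynaroside against DMSO the share was 45%, with 22.6% higher and 22.4% lower, and for FEBJ against cynaroside 69.4%. These shares touch contrasts that chose the 3 genes and nothing is read from them about the members. Ordered by log2 fold change of FEBJ over DMSO, 101 of the 2611 genes stood above KRT7, 520 stood below VIM and 948 below KRT18. For cynaroside over DMSO, 103 genes stood below KRT18, 210 below KRT7 and 816 below VIM. The comparisons with DMSO share their control libraries.

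The size of these differences depends on the scaling. With TMM factors from the rows as deposited, the median of all 2611 genes lay at 0.34 for FEBJ over DMSO and 0.43 for cynaroside over DMSO on the log2 scale, in place of -0.02 and 0.00. The share of called genes that were higher was then 64.9% and 84.5%, in place of 49.2% and 50.3%. On that scale VIM was -0.70 for FEBJ and 0.11 for cynaroside, so its cynaroside direction reversed, although it remained below the shifted median. KRT18 was -0.08 for FEBJ and -1.38 for cynaroside, and KRT7 was 2.78 for FEBJ and -0.77 for cynaroside.

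**Figure D2:**
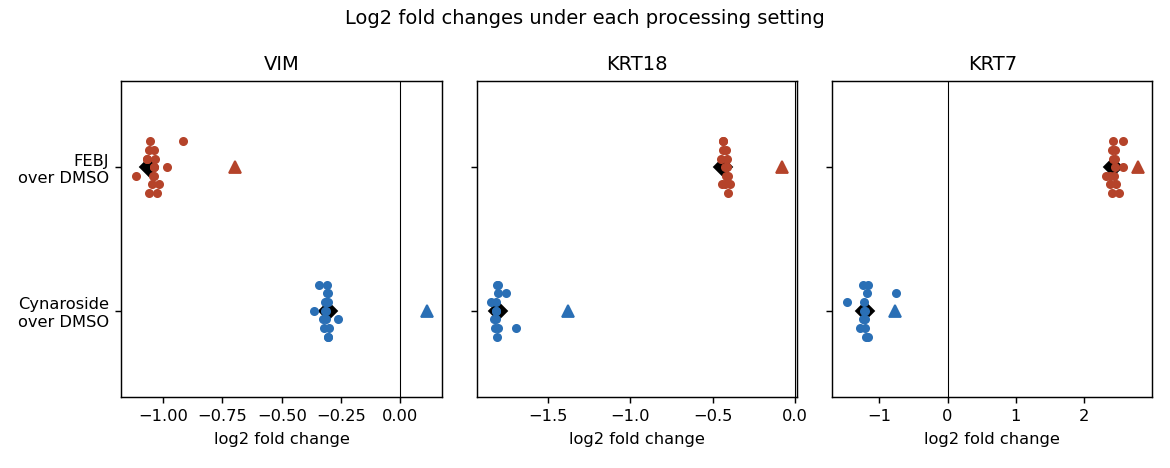
Log2 fold change over DMSO (horizontal axis) of VIM, KRT18 and KRT7 for each processing setting, with FEBJ above and cynaroside below. Black diamonds are the values as reported, triangles the TMM factors of the rows as deposited and circles the other settings, spread vertically for sight. VIM for cynaroside moves from -0.30 to 0.11 with the deposited factors.

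Ratios of 2 genes within a library do not depend on library scaling. For each 1000 VIM counts there were 34.0 and 34.0 KRT18 counts in the DMSO libraries, 52.1 and 52.6 in the FEBJ libraries and 12.5 and 11.7 in the cynaroside libraries. KRT18 relative to VIM was thus higher than DMSO with FEBJ, where both levels were lower, and lower with cynaroside. The exact (Clopper-Pearson) 95% intervals, which cover counting error only, ran from 33.2 to 34.9 in DMSO library 2 and from 50.3 to 53.9 in FEBJ library 1. In cynaroside library 2 the interval was 11.2 to 12.2.

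KRT7 per 1000 VIM counts was 1.32 and 1.23 with DMSO, 15.4 and 13.0 with FEBJ and 0.928 and 0.562 with cynaroside. The 2 FEBJ libraries stood apart from each other beyond counting error, with intervals of 14.5 to 16.4 and 12.3 to 13.7, and both far above the rest. So did the cynaroside libraries, with intervals of 0.711 to 1.19 and 0.462 to 0.677. The interval of cynaroside library 1 overlapped those of the DMSO libraries, which began at 1.12 and 1.07. KRT7 per 1000 KRT18 counts was 38.7 and 36.0 with DMSO, 296 and 247 with FEBJ and 74.3 and 48.0 with cynaroside. Relative to KRT18, KRT7 was therefore higher than DMSO with FEBJ and, in the values of both libraries, with cynaroside. The interval of cynaroside library 2, 39.3 to 58.2, overlapped that of DMSO library 1, 32.9 to 45.3.

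**Figure D3:**
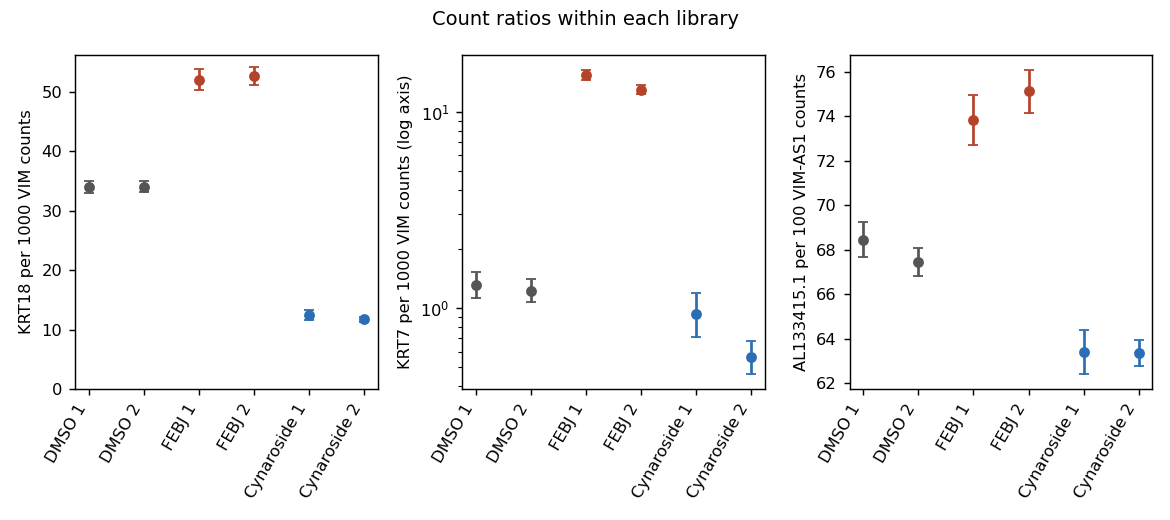
Count ratios in each of the 6 libraries: KRT18 per 1000 VIM counts, KRT7 per 1000 VIM counts on a log axis, and AL133415.1 per 100 VIM-AS1 counts, whose axis does not start at 0. Points are libraries and bars exact 95% binomial intervals. For KRT18 per 1000 VIM counts the 2 libraries of a group lie together, at 52.1 and 52.6 with FEBJ and 12.5 and 11.7 with cynaroside. For KRT7 per 1000 VIM counts they lie farther apart, at 15.4 and 13.0 and at 0.928 and 0.562.

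The 2 rows summed for VIM, which overlap different coding exons of the gene, are also described apart. VIM was chosen by their sum, so their direction is no separate evidence for its difference. Over the FEBJ and DMSO means, VIM-AS1 was -1.11 and AL133415.1 -0.98 on the log2 scale, and for cynaroside they were -0.26 and -0.36. Both rows lay below DMSO with both treatments, yet not by the same amount. AL133415.1 had 68.5 and 67.5 counts per 100 of VIM-AS1 with DMSO, 73.8 and 75.1 with FEBJ and 63.4 and 63.4 with cynaroside. The 3 groups did not overlap in this ratio, and the intervals of the FEBJ libraries, from 72.7 upward, lay clear of the DMSO ones, up to 69.2.

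The genes' own rows were a small addition. The VIM row had 1075 and 1455 counts with DMSO, 120 and 155 with FEBJ and 155 and 319 with cynaroside. That was 0.863 and 0.803 counts per 100 opposite counts with DMSO, 0.176 and 0.162 with FEBJ and 0.232 and 0.163 with cynaroside. The own row of VIM thus lay farther below DMSO than its opposite rows, at -3.36 for FEBJ and -2.38 for cynaroside on the log2 scale of means. A fall of own rows was not particular to VIM. Tested coding rows with no exon on the other strand had medians of -1.02 and -1.40, on the scale of the rows as deposited.

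The KRT18 row had 316 and 491 counts with DMSO, 303 and 313 with FEBJ and 130 and 380 with cynaroside. Per 100 counts of the KRT8 row this was 7.46 and 7.96, 8.53 and 6.21, and 15.6 and 16.6, so the cynaroside libraries stood above the other 4. On the log2 scale of means the KRT18 row was -0.50 for FEBJ and -0.74 for cynaroside over DMSO. Both are smaller falls than the medians of coding rows given above. The KRT8 and KRT18 rows lie opposite to each other, and these counts alone do not tell which keratin of the pair either row holds. The KRT7 row had 10 and 9, 15 and 11, and 1 and 4 counts in the same order of libraries, too few to set beside KRT7-AS.

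**Figure D4:**
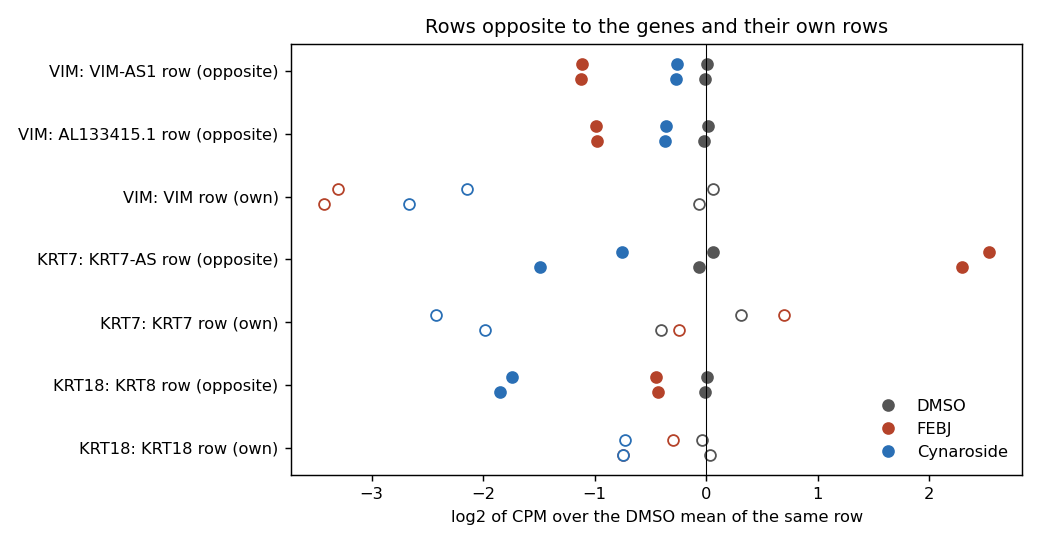
Log2 of CPM over the DMSO mean of the same row (horizontal axis) for the rows read as VIM, KRT7 and KRT18 (filled points) and the genes' own rows (open points), 1 point per library. The VIM own row lies at -3.36 for FEBJ by its means, below the -1.11 and -0.98 of the 2 rows opposite to VIM.

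Other intermediate filament genes and the proteins that anchor, modify and control filaments were taken as 6 lists of 180 genes. In the opposite-strand reading 19 of them were tested. For FEBJ over DMSO 3 rose and 7 fell, 52.6% against 69.3% of all genes, and their median log2 fold change was -0.28. For cynaroside over DMSO 3 rose and 4 fell, 36.8% against 45% of all genes, with a median of -0.19 as fitted, or -0.15 with NEFH left out for its 0 counts there. None of the 35 other keratins could be read from an opposite row. Among genes described next, SUN2, CASP6, CASP9, PPP1CA, JUNB and ESRP2 were read from rows of coding genes. These were GTPBP1, MCUB, CELA2B, RAD9A, HOOK2 and NFATC3 in that order, and the counts may be of those genes.

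Among other intermediate filament genes, SYNM and NEFH were tested. SYNM encodes synemin, which joins vimentin or desmin filaments to other structures. It had 424 and 649 counts with DMSO, 653 and 1011 with FEBJ and 557 and 1453 with cynaroside, or 268 ± 6.98, 370 ± 25.8 and 489 ± 43.2 CPM (SD, n = 2). It rose with FEBJ (log2 fold change 0.47 ± 0.10, edgeR adjusted p = 2.06e-05) and more with cynaroside (0.86 ± 0.10, edgeR adjusted p = 7.91e-12). The difference between the treatments also passed the test (edgeR adjusted p = 0.000228). NEFH, the neurofilament heavy chain, rose with FEBJ, from 1 count in both DMSO libraries together to 9 and 36 counts. That was 40.3 times as much by count over library size, with an exact 95% interval of 6.88 to 1627 (counting error only). Cynaroside had 0 counts in both libraries. The own row of NEFH differed, with 2 and 0 counts with DMSO, 4 and 14 with FEBJ and 4 and 16 with cynaroside. Its ratios were 10.3 with FEBJ (exact 95% interval 2.48 to 92.0) and 12.8 with cynaroside (3.11 to 113). The own row passed neither test against DMSO.

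Of the linkers and nuclear envelope anchors, 6 were tested and 4 fell with FEBJ, none rising, so 66.7% were called beside 69.3% of all genes. TMPO, which encodes lamina-associated polypeptide 2, had 1257 ± 59.8 CPM with DMSO and 488 ± 18.4 with FEBJ (log2 fold change -1.36 ± 0.06, edgeR adjusted p = 1.17e-33). SUN2, a protein of the inner nuclear membrane that links the lamina to the cytoskeleton, had 670 ± 26.6 CPM with DMSO and 275 ± 2.13 with FEBJ (-1.29 ± 0.08, edgeR adjusted p = 1.19e-25). SUN2 rose with cynaroside to 821 ± 5.37 CPM (0.29 ± 0.07, edgeR adjusted p = 0.00073). DSG2, a desmosomal cadherin, fell with FEBJ (-1.71 ± 0.28, edgeR adjusted p = 1.54e-07) from 63.0 ± 21.3 to 19.3 ± 5.52 CPM, and was at 0.05 ± 0.26 with cynaroside. PKP4, a plakophilin-related junction protein, fell with FEBJ (-0.54) and cynaroside (-0.63). Its FEBJ call was lost without DMSO library 1 (edgeR adjusted p = 0.0891), DMSO library 2 (0.0659) or FEBJ library 2 (0.324), from non-coding rows only (0.0681), with deposited-row factors (0.467) and with DESeq2 (0.0889). Its cynaroside call was lost without DMSO library 1 (0.0549) or cynaroside library 2 (0.0907), with deposited-row factors (0.443) and with DESeq2 (0.0515).

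Of the kinases, proteases, chaperones and binding proteins, 8 were tested. With FEBJ, AKT1, a kinase that phosphorylates vimentin, fell from 1722 ± 152 to 495 ± 34.0 CPM (-1.79 ± 0.06, edgeR adjusted p = 5.36e-43). CASP6, the caspase that cleaves lamins and keratin 18, fell from 24.7 ± 4.27 to 7.11 ± 1.37 CPM (-1.82 ± 0.47, edgeR adjusted p = 0.000497). With cynaroside, PLK1, a mitotic kinase that acts on vimentin, fell from 665 ± 17.3 to 409 ± 31.0 CPM (-0.72 ± 0.08, edgeR adjusted p = 1.83e-12), and PPP1CA, a phosphatase catalytic subunit, fell by 0.27 on the log2 scale. AKT1 also fell with cynaroside (-0.19 ± 0.06), a call lost without DMSO library 1 (edgeR adjusted p = 0.21) or cynaroside library 2 (0.0647). CASP9, an initiator caspase, rose with cynaroside from 4 and 5 counts to 25 and 51 (3.05 ± 0.78, edgeR adjusted p = 0.000755). With the factors of the rows as deposited the cynaroside values of AKT1 and PPP1CA lay above DMSO, at 0.23 and 0.15. AKT1 then passed as higher (edgeR adjusted p = 0.00561) and PPP1CA did not pass (0.0869).

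Of the transcription factors, TFAP2A and JUNB were tested. TFAP2A, an AP-2 factor of epithelial and neural crest cells, fell with FEBJ from 360 ± 1.79 to 81.3 ± 6.25 CPM (-2.15 ± 0.13, edgeR adjusted p = 5.23e-26). JUNB, an AP-1 subunit, rose with FEBJ from 143 ± 8.90 to 318 ± 10.3 CPM (1.14 ± 0.13, edgeR adjusted p = 1.21e-12). Neither passed the test with cynaroside, at -0.21 ± 0.12 and 0.11 ± 0.14. ESRP2, an epithelial splicing factor and the 1 tested gene of the epithelial adhesion list, passed neither test.

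**Figure D5:**
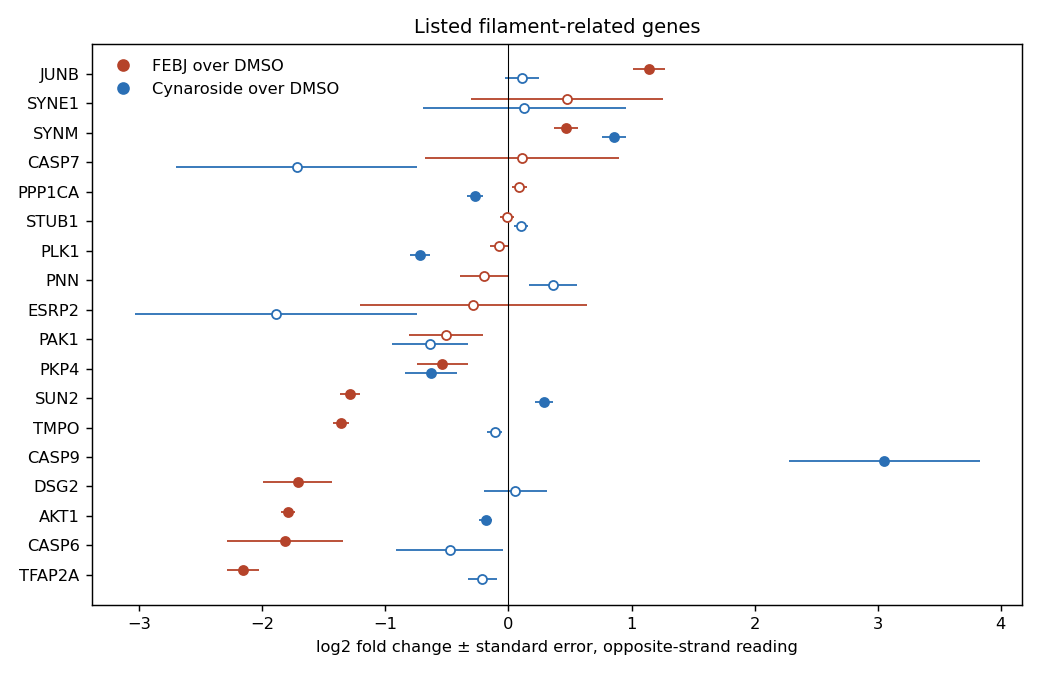
Log2 fold change over DMSO ± standard error (horizontal axis) of listed filament-related genes in the opposite-strand reading, for FEBJ and for cynaroside. Filled points passed an adjusted p of 0.05 and open points did not. Values with 3 or fewer counts in a group (NEFH, and CASP9 with FEBJ) are left out. TFAP2A with FEBJ stands at -2.15 and CASP9 with cynaroside at 3.05.

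In the rows as deposited, under their own names, 87 of the listed genes were tested beside 12012 rows in all. For FEBJ over DMSO 12 rose and 42 fell, 62.1% against 50.8% of all rows, of which 26% rose and 24.8% fell. Their median was -1.43 against -0.06. For cynaroside over DMSO 8 rose and 40 fell, 55.2% against 45.4% of all rows, of which 24.3% rose and 21.1% fell. Their median was -1.35 against 0.02. The low medians were shared by the 3906 tested protein-coding rows with no exon on the other strand, whose medians were -1.02 and -1.40, so they are not particular to the lists.

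The lamins, the intermediate filaments of the nucleus, had own rows with no opposite exon. Tested coding rows of that kind had median log2 fold changes of -1.02 with FEBJ and -1.40 with cynaroside. The lamin values below are of own rows, and with cynaroside they lay near that median. LMNA had 202 and 290 counts with DMSO, 44 and 84 with FEBJ and 48 and 58 with cynaroside. It fell with both, at -1.76 ± 0.29 (edgeR adjusted p = 7.99e-06) and -1.71 ± 0.30 (edgeR adjusted p = 3.37e-05). LMNB2 fell with FEBJ (-2.40 ± 0.33, edgeR adjusted p = 5.79e-07) and cynaroside (-1.35 ± 0.31). LMNB1 fell with cynaroside (-1.61 ± 0.30, edgeR adjusted p = 6.65e-05) and was at -0.27 ± 0.26 with FEBJ. Between the treatments, a comparison in which 41.9% of all rows passed, LMNB1 was higher with FEBJ and LMNB2 lower, at 1.34 ± 0.30 and -1.05 ± 0.35 (edgeR adjusted p = 0.000593 and 0.0179).

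The remaining filament genes were sparse. The own rows of KRT19, the partner of KRT7 in ducts, and DES, the muscle and stellate filament desmin, had 0 counts in all 6 libraries. NES, nestin, had 6 counts in DMSO library 1 alone. DSP, desmoplakin, had 8 and 2, 4 and 19, and 0 and 0 counts in DMSO, FEBJ and cynaroside, and FAM83H, which organises keratin filaments, 2 counts in cynaroside library 1 alone. Of the other keratins only KRT10 and KRT81 were tested, with 194 and 78 counts in all. KRT81, a hair keratin, fell with FEBJ (-2.38 ± 0.87, edgeR adjusted p = 0.024), a call lost without DMSO library 2 (0.397), FEBJ library 1 (0.0853) or FEBJ library 2 (0.105) and with a replicate block (0.0597). The row of KRT10, a keratin of the upper epidermis, lies opposite to TMEM99. It rose with FEBJ (1.65 ± 0.51, edgeR adjusted p = 0.00818), a call lost without DMSO library 1 (0.101) or FEBJ library 1 (0.0743). The GFAP row, named for a filament of astrocytes and stellate cells, lies opposite to CCDC103 and FAM187A, so its counts may be of those genes. It rose with FEBJ (1.24 ± 0.21, edgeR adjusted p = 1.19e-05) and was at -0.39 ± 0.23 with cynaroside. The cynaroside value was -1.24 without cynaroside library 2 (edgeR adjusted p = 0.000124), and the row passed as lower with RLE (0.0424), upper-quartile scaling (0.0261) and DESeq2 (0.0476).

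Plakins, the large proteins that tie filaments to junctions and other fibres, went both ways. PLEC, plectin, had 290 and 406 counts with DMSO, 40 and 64 with FEBJ and 66 and 234 with cynaroside. It fell with FEBJ (-2.55 ± 0.22, edgeR adjusted p = 8.97e-11) and cynaroside (-0.92 ± 0.20, edgeR adjusted p = 0.000508). The cynaroside value is a smaller fall than the median of -1.40 of tested coding rows with no exon on the other strand. DST, dystonin, fell with both (-3.61 ± 0.35 and -2.37 ± 0.32), and so did MACF1 (-2.88 ± 0.48 and -2.52 ± 0.48). PPL, periplakin, rose with FEBJ from 13 and 17 counts to 116 and 196 (3.54 ± 0.40, edgeR adjusted p = 1.64e-08) and was at 0.63 ± 0.48 with cynaroside.

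The chaperone and binding protein list held 31 tested rows, of which 4 rose and 20 fell with FEBJ and 3 rose and 20 fell with cynaroside. That is 77.4% and 74.2% called, beside 50.8% and 45.4% of all rows and 46.7% and 47.6% of coding rows with no exon on the other strand. HSPA8, the constitutive HSP70 chaperone, had 800 and 1146 counts with DMSO, 26 and 37 with FEBJ and 65 and 122 with cynaroside, and fell with both (-4.74 ± 0.19 and -2.97 ± 0.17). YWHAE, a 14-3-3 protein, fell with both (-2.83 ± 0.24 and -2.75 ± 0.24). CRYAB, a small heat shock protein that binds vimentin and desmin, rose with both, from 1 count in the DMSO libraries together to 40 and 45 in the treated pairs, though its row lies opposite to HSPB2. The ratio was 46.0 with FEBJ (exact 95% interval 7.79 to 1861) and 57.6 with cynaroside (9.82 to 2325).

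Of 25 tested regulators of mesenchymal and epithelial genes, 2 rose and 11 fell with FEBJ and 1 rose and 10 fell with cynaroside. The 52% and 44% called are near the 50.8% and 45.4% of all rows. The AP-1 subunits FOSL1 and FOSL2 fell with both, at -3.10 ± 0.35 and -4.37 ± 0.62 with FEBJ and -1.31 ± 0.31 and -3.03 ± 0.56 with cynaroside. JUN fell with cynaroside (-2.73 ± 0.48) and with FEBJ (-1.43 ± 0.42), the FEBJ call being lost without DMSO library 2 (edgeR adjusted p = 0.0717) or FEBJ library 2 (0.0918). ELF3, an epithelial ETS factor, rose with FEBJ from 2 counts to 56, a ratio of 32.2 (exact 95% interval 8.51 to 272), and its call was lost without FEBJ library 2 (edgeR adjusted p = 0.0691). Of the epithelial adhesion genes, CLDN4, a tight junction claudin, rose with cynaroside from 56 and 101 counts to 81 and 277 (edgeR adjusted p = 0.000247). LAMB3, a laminin chain, fell with FEBJ (-3.07 ± 0.80, edgeR adjusted p = 0.0021). With the other treatment neither was called, but some settings called each lower. For CLDN4 with FEBJ these included RLE (edgeR adjusted p = 0.0419), upper-quartile scaling (0.0362), 1 CPM in 2 libraries (0.0478) and a replicate block (0.0322). For LAMB3 with cynaroside they included RLE (0.0476), upper-quartile scaling (0.0426), a replicate block (0.0218) and the 4-library fit (0.0236).

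Several listed rows lie opposite to another protein-coding gene and may hold its counts. In such rows TCHP and TGFB1, opposite GIT2 and HNRNPUL1, fell with FEBJ (-0.70 and -0.67) and rose with cynaroside (0.68 and 0.49). DNAJB1, opposite TECR, and STUB1, opposite JMJD8, rose with both treatments. With FEBJ the gains were 0.47 and 1.96, and with cynaroside 0.75 and 0.55. The DNAJB1 call with FEBJ and the STUB1 call with cynaroside were lost without DMSO library 1 (edgeR adjusted p = 0.0566 and 0.0573), the STUB1 call also with upper-quartile scaling (0.0569) and the 4-library fit (0.0706). SUN2 and PPP1CA rose with FEBJ by their own rows, at 1.13 and 1.62, where their opposite-strand readings were at -1.29 and 0.09. NUP88, opposite RABEP1 and RPAIN, rose with cynaroside by 0.18 ± 0.07, a call lost without either DMSO library, either FEBJ library or cynaroside library 2 (edgeR adjusted p from 0.0655 to 0.437). It was also lost with RLE, upper-quartile scaling, no filter, 1 CPM in 2 libraries, the 4-library fit and DESeq2 (0.258 to 0.893). Own rows with few counts also passed the test for TFAP2A and SYNM. For TFAP2A with FEBJ the opposite-strand reading went the other way (-2.15). For SYNM with cynaroside it had the same direction (0.86). The TFAP2A row rose with FEBJ (0.82 ± 0.30, edgeR adjusted p = 0.0261), a call lost without any 1 of the 4 DMSO and FEBJ libraries (0.0859 to 0.156). It was also lost with RLE, upper-quartile scaling, no filter and DESeq2 (0.0522 to 0.0878). The SYNM row rose with cynaroside (1.58 ± 0.65, edgeR adjusted p = 0.0471), a call lost without either DMSO library, either FEBJ library or cynaroside library 2 (0.0559 to 0.27). It was also lost with RLE, upper-quartile scaling, no filter, 1 CPM in 2 libraries, a replicate block, the 4-library fit and DESeq2 (0.0707 to 0.117).

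The genes whose pattern over the 6 libraries was most like each of the 3 were found by the root mean square difference of centred log2 CPM, over 2525 genes of at least 5 CPM. For VIM they were PRDX1, SRSF9, USP22, FUCA2 and LASP1, at 0.043 to 0.054 log2 units. For KRT18 they were SMYD4, DPYD, MEIS1, HNRNPH3 and BZW2, at 0.166 to 0.231. For KRT7 they were ADK, RASGRF1, PLK3, MNS1 and NVL, at 0.159 to 0.335. PRDX1, SRSF9, SMYD4, HNRNPH3, PLK3 and MNS1 were read from rows of coding genes. These were MMACHC, GATC, RPA1, RUFY2, TCTEX1D4 and TEX9 in that order, and the counts may be of those genes. None of the 15 was among the listed filament genes. Only 19 of those were tested among the 2611 genes of this reading, so little can be read from their absence.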

How the data were processed

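The authors deposited raw read counts for each of the 6 libraries, 62754 gene rows and 5 summary rows each. Per the submitters' processing notes, CASAVA 1.7, HISAT2, HTSeq 0.12.4, DESeq2 1.38.0 and the hg19 build were used; the library kit, strand setting and annotation release are not given in the sources used here. The summary rows entered neither library sizes nor tests. Symbols matched 62700 rows, and exon overlaps came from GENCODE 29 on GRCh38, which holds 58261 of the rows. The builds were not reconciled, so no genome coordinates are printed. Some sequences and 1 marker gene are not reported here.

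In the opposite-strand reading, a row whose exons overlap by at least 50 bp those of exactly 1 protein-coding gene on the other strand, with at least as many counts as that gene's row, was given to that gene, and rows of 1 gene were summed. In all, 3245 features gave 2976 genes. Both tables were filtered with filterByExpr, scaled with TMM and fitted with edgeR 4.0.16 in R 4.3.3, with 3 group means, 3 residual degrees of freedom, the quasi-likelihood test and p-values adjusted by Benjamini-Hochberg over each comparison. Genes are said to rise or fall at an adjusted p of 0.05 or under. Scripts were tested on simulated data. P-values measure only the spread between these libraries.

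The genes and lists were chosen with earlier results of these data known. Named were a panel of 12 genes, up to 3 rising and 3 falling genes with the smallest p per list and comparison with DMSO (2 and 2 in the rows as deposited), and the 5 genes most like each of VIM, KRT7 and KRT18. Alternatives were RLE, upper-quartile and deposited-row scaling, other filters, a prior count of 2, leaving out each library, a replicate block, fits of 4 libraries, an overlap of 100 bp, non-coding rows only, other rows for VIM, own plus opposite rows and DESeq2 1.42.0. Binomial intervals are exact, at 95%.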

Additional observations from a re-analysis of the deposited data

How the results depend on the processing

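The direction of VIM, KRT7 and KRT18 held under each alternative run for them except VIM for cynaroside over DMSO, which was 0.11 with TMM factors from the rows as deposited. Other log2 values with those factors were -0.70 (VIM, FEBJ over DMSO), -0.81 (VIM, FEBJ over cynaroside), 2.78 (KRT7, FEBJ), -0.77 (KRT7, cynaroside), -0.076 (KRT18, FEBJ) and -1.38 (KRT18, cynaroside). VIM for FEBJ over DMSO was -1.02 with RLE, -1.04 with upper-quartile scaling, with no filter and with 1 CPM in 2 libraries, -0.92 from non-coding rows only, -1.11 from VIM-AS1 alone and -0.98 from AL133415.1 alone. For cynaroside over DMSO it was -0.33 with upper-quartile scaling, -0.34 from non-coding rows, -0.26 from VIM-AS1 and -0.36 from AL133415.1. For FEBJ over cynaroside it was -0.72 with RLE, upper-quartile scaling, no filter and 1 CPM, -0.75 with 4 libraries, -0.58 from non-coding rows, -0.85 from VIM-AS1 and -0.62 from AL133415.1. KRT18 for FEBJ over DMSO was -0.39 with RLE and -0.41 with no filter or 1 CPM; own plus opposite rows gave -1.70 for cynaroside over DMSO and 1.25 for FEBJ over cynaroside.

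Leaving out each library gave VIM -1.07 to -1.03 (FEBJ over DMSO), -0.32 to -0.30 (cynaroside over DMSO) and -0.76 to -0.72 (FEBJ over cynaroside). KRT7 ranged from 2.32 to 2.56, -1.47 to -0.75 and 3.20 to 3.89, and KRT18 from -0.45 to -0.41, -1.84 to -1.75 and 1.33 to 1.41, in the same order. Rows as deposited called lower with cynaroside numbered 1543 to 2649, against 2537 with all libraries: 1618 without DMSO library 1 and 1543 without DMSO library 2. Listed genes that fell with cynaroside numbered 2 to 4 in the opposite-strand reading, with 2 left without DMSO library 1 or without cynaroside library 2. Listed rows that rose with cynaroside numbered 5 to 10, with 5 left without DMSO library 1.

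From non-coding rows only, with fewer genes tested, 557 genes rose and 525 fell with FEBJ, 311 rose and 329 fell with cynaroside, and 545 were higher and 523 lower with FEBJ than with cynaroside. The listed genes called were then 4 lower with FEBJ, 1 higher with cynaroside, and 2 higher and 5 lower between treatments. With no filter or 1 CPM, 5 listed genes rose with FEBJ. Listed rows that rose with cynaroside were 5 with upper-quartile scaling and with 4 libraries. With deposited-row factors the log2 change of AKT1 (0.23), PPP1CA (0.15) and TMPO (0.31) with cynaroside changed sign. So did that of PLK1 (0.29) and STUB1 (0.35) with FEBJ. Of these genes, all but PPP1CA then passed as higher (edgeR adjusted p from 4.8e-05 to 0.00561). The NUP88 row with cynaroside changed sign (-0.0093) under upper-quartile scaling. The cause was not tested. Of values for single named genes, 1258 kept direction and side of the threshold, 60 lost the call and 41 gained it. KRT7 is read from 1 row, so its largest row alone was not run. DESeq2 and the 100 bp overlap were run for calls only, not for VIM, KRT7 and KRT18, and KRT18 has no value from non-coding rows only.

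Same-numbered libraries did not deviate together: the correlations of their deviations were 0.06 (DMSO and FEBJ), -0.04 (DMSO and cynaroside) and 0.03 (FEBJ and cynaroside). With a replicate block the log2 fold changes of VIM were -1.06, -0.30 and -0.76, of KRT7 2.41, -1.17 and 3.59 and of KRT18 -0.44, -1.80 and 1.37. The block gave 886 genes higher and 919 lower with FEBJ, and 589 and 590 with cynaroside. Depth limits most the genes with few counts in a group, NEFH, CASP9, DSP and KRT7's own row among them.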
